A study of Mus musculus with 6 samples.

Results

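The ISG15 conjugation pathway was taken as 7 genes of the 56262 in the count table: Isg15 itself and the enzymes that activate, conjugate, ligate and remove it, Uba7, Ube2l6, Herc6, Arih1, Trim25 and Usp18. They were chosen by name, from what each encodes, with earlier results of these data known. All 7 were among the 17120 genes with enough counts to be tested (edgeR filterByExpr). Lung RNA came from 3 R/R mice and 3 wild-type (WT) mice. R/R mice are homozygous knock-in animals on the C57BL/6 background in which CRISPR editing replaced 2 lysines of the RNA-binding protein RBM47 by arginine (K329R and K332R), the residues that the study selected as ISG15 attachment sites, and every cell of the animal carries the change. WT mice were littermates with unedited RBM47. All 6 mice were 8 weeks old and received no treatment, so the values describe resting lung and not an infected or IFN-treated one. The counts report transcripts, and neither ISG15 protein nor its conjugates were measured in them.

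ISG15 is a ubiquitin-like protein that type I interferon (IFN) induces. It is activated by the E1 enzyme UBA7, passed to the E2 enzyme UBE2L6 and joined to lysines of target proteins by an E3 ligase. HERC6 is the main ISG15 ligase in mouse, where it takes the place of human HERC5, while ARIH1 and TRIM25 are ubiquitin ligases that have also been described as ISG15 ligases, and the protease USP18 removes ISG15 from its targets and restrains signaling at the IFN receptor. IFN made during infection raises most of these transcripts through factors that bind IFN-stimulated response elements (ISREs) in their promoters.

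Isg15 was the only one of these genes with complete ISRE core matches in the RefSeq promoter window, which runs from 250 bases before to 50 bases after the annotated start. Windows were found for 6 of the 7 members, all but Usp18. The Isg15 window is shown because its matches sit next to each other. It lies on the minus strand at chr4:156200769-156201068 (GRCm38.p6), is written 5′ to 3′ in the direction of transcription, and has the matched letters in capitals.
Isg15: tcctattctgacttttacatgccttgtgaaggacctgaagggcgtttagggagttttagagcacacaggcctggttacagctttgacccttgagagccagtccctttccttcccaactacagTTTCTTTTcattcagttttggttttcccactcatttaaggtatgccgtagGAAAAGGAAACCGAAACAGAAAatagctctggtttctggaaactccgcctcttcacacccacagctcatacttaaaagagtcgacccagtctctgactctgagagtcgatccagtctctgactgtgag

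The ISRE core was searched as GAAANNGAAA on both strands. Isg15 held 3 overlapping matches, GAAAAGGAAA from base -78 to -69, GAAACCGAAA from -72 to -63 and GAAACAGAAA from -66 to -57 relative to the start. The same letters occurred in 3.44% of the 32851 promoter windows of this length in the table. Of the 45 windows of type I IFN-induced genes outside the pathway, 21 held the core (46.7%). They belonged to 19 of the 39 genes with a window, including the viral inhibitors Rsad2 and Oas3. A shorter search for AANNGAAA, the half-site bound by IRF factors, which every core contains, matched 3 of the 6 members and 23.9% of all windows. It found Uba7 from -27 to -20 and Trim25 from -4 to 4, both read on the opposite strand, and a further match in Isg15 from -128 to -121. The stretches around the Uba7 match (chr9:107975529-107975558, plus strand) and the Trim25 match (chr11:88999388-88999417, plus strand) are given with the matched letters in capitals.
Uba7: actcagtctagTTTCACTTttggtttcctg
Trim25: ctcctgttcagTTTCGATTccttcctcgct

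The gamma-activated site, searched as TTCNNNGAA, was in none of the 6 member windows and in 8.3% of all windows. These are letter matches, in one window for each of the 6 members, and they do not show which factor was bound in these lungs.

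**Figure D1:**
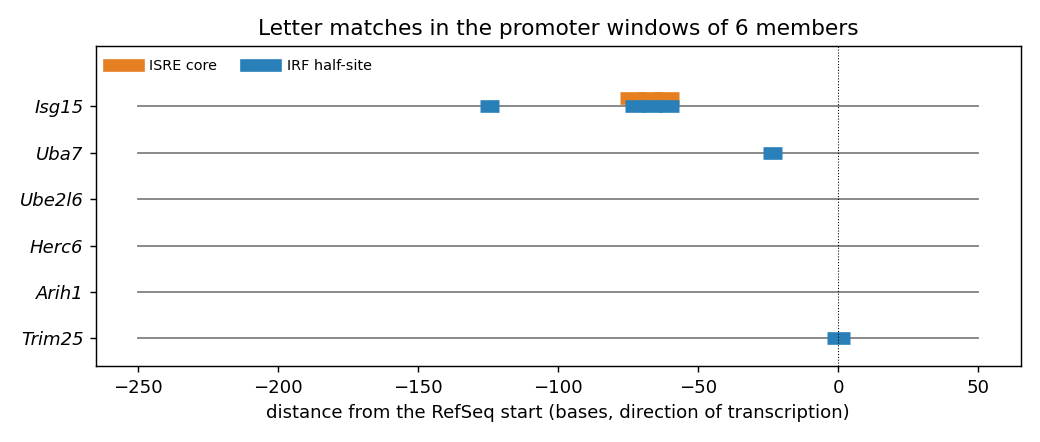
Positions of the letter matches in the promoter windows of 6 members, with the distance from the RefSeq start in bases on the horizontal axis. Isg15 holds 3 overlapping ISRE cores between -78 and -57, Uba7 and Trim25 hold a single half-site each, and Ube2l6, Herc6 and Arih1 hold neither.

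Library totals were between 16501092 and 18141067 read pairs on genes, and a single count was worth between 0.0552 and 0.0607 CPM, the count scaled to the size of the library, after TMM scaling. The genotypes were compared in one fit over all 17120 tested genes by the quasi-likelihood test of edgeR, and genes with an adjusted p (Benjamini-Hochberg) below 0.05 are referred to as called. By this rule 1.75% of the tested genes were called, and 1.1% were called lower in R/R lungs. Rbm47, whose transcript level does not report the amino acid change, was at 32.7, 33.5 and 34.1 CPM in R/R lungs and at 28.8, 30.5 and 34.4 CPM in WT lungs.

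None of the 7 members was called by edgeR's quasi-likelihood test, against the 1.75% of all tested genes that were. All 7 had a negative log2 fold change of R/R minus WT, between -0.46 for Isg15 and -0.04 for Usp18, with a median of -0.10. The median of all tested genes was 0.00, and 48.8% of them had a negative value. A single member, Isg15, had an unadjusted p below 0.05, as did 14.2% of all tested genes. DESeq2, edgeR's exact test and limma-voom also called 0 members, whereas edgeR's quasi-likelihood test called 1, Isg15, when genes with low counts were kept (adjusted p = 0.0292). The p-values of edgeR's quasi-likelihood test combine the spread between 3 lungs of each genotype with a prior drawn from all tested genes. That prior holds 7.66 of the 11.7 degrees of freedom. The exact two-sided permutation test of 3 against 3 cannot go below 0.1.

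**Figure D2:**
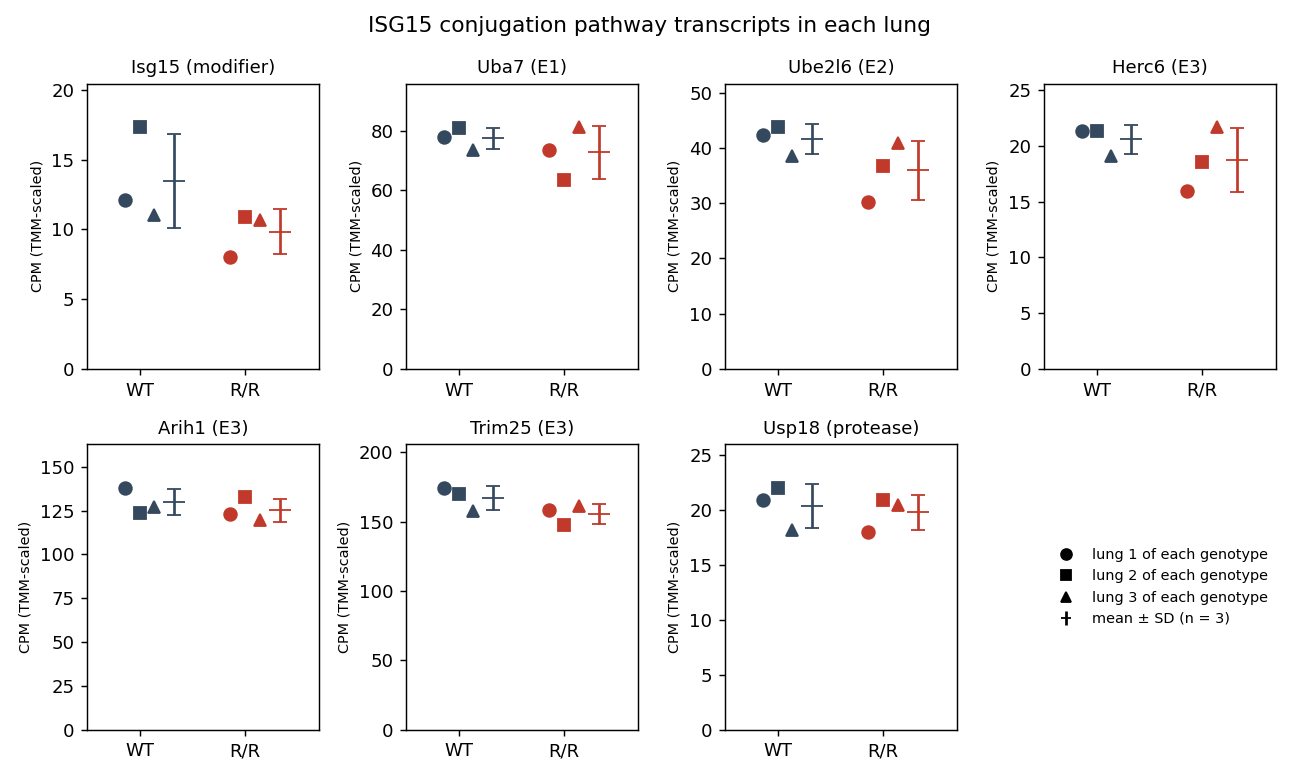
TMM-scaled CPM of each of the 7 members in the 3 WT (blue) and 3 R/R (red) lungs, with the mean and SD of each genotype beside the points. The genotypes do not overlap for Isg15, where the highest R/R lung is at 10.9 and the lowest WT lung at 11.1, and they overlap for the other 6 members.

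Isg15 (ENSMUSG00000035692.7, chromosome 4 from 156199455 to 156200796, minus strand, GRCm38) encodes the modifier. R/R replicates 1, 2 and 3 gave 144, 182 and 181 counts, or 7.99, 10.9 and 10.7 CPM. WT replicates 1, 2 and 3 gave 199, 314 and 189 counts, or 12.1, 17.3 and 11.1 CPM. R/R replicate 1 was the lowest lung and WT replicate 2 the highest, while the other 4 lungs lay close together, and the 182 counts of the highest R/R lung and the 189 of the lowest WT lung are within counting error of each other (a relative Poisson error of 8.33% at the lowest count and 5.64% at the highest). The groups did not overlap, which was also true of 18.7% of all tested genes, in either direction.

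Isg15 averaged 9.84 ± 1.61 CPM in the R/R group (SD, n = 3) and 13.5 ± 3.36 CPM in the WT group (SD, n = 3). Its log2 fold change was -0.46 with an SE of 0.18, and the 95% interval, not corrected for the number of genes, ran from -0.85 to -0.07. On the linear scale this is an R/R level of 0.727 times the WT level, with an interval from 0.554 to 0.956. Isg15 missed the threshold with edgeR's quasi-likelihood test (p = 0.026, adjusted p = 0.265), and the exact permutation p was 0.1, the smallest it can be. The size of the difference rested on WT replicate 2, without which it came to -0.24 on the log2 scale (adjusted p = 0.672 with edgeR). Without R/R replicate 1 it came to -0.33 (adjusted p = 0.514). Of all tested genes, 5.6% had a more negative log2 fold change.

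Uba7 (ENSMUSG00000032596.14, chromosome 9 from 107975505 to 107984060, plus strand) encodes the E1 enzyme that activates ISG15. It was at 73.6, 63.5 and 81.3 CPM in R/R lungs and at 78.0, 80.9 and 73.8 CPM in WT lungs. Both the lowest and the highest of the 6 lungs were R/R, and the WT lungs lay between them. The log2 fold change was -0.09, with a 95% interval from -0.27 to 0.09 (adjusted p = 0.699, edgeR). An R/R level under 0.827 times the WT level lies outside that interval. Its exons share 233 bases with Gm20661, a gene annotated on the same strand, and read pairs there could not be given to either.

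Ube2l6 (ENSMUSG00000027078.14, chromosome 2 from 84798828 to 84810335, plus strand) encodes the E2 enzyme that carries ISG15. R/R lungs had 30.2, 36.8 and 40.9 CPM and WT lungs had 42.3, 43.8 and 38.5 CPM. The lowest lung was again R/R replicate 1 and the highest WT replicate 2, and the groups overlapped only because R/R replicate 3 lay above WT replicate 3. The log2 fold change was -0.21 with an SE of 0.10 and an interval from -0.44 to 0.02, next in size after Isg15 among the members. It was not called (adjusted p = 0.394 with edgeR's quasi-likelihood test). Without WT replicate 2 or R/R replicate 1 it stayed negative, and over all 6 single-library omissions it lay between -0.31 and -0.10.

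Herc6 (ENSMUSG00000029798.11, chromosome 6 from 57581000 to 57664632, plus strand) encodes the mouse ISG15 ligase. Its values were 15.9, 18.5 and 21.7 CPM in R/R lungs, while WT lungs had 21.3, 21.4 and 19.1 CPM. R/R replicate 3 was the highest lung and R/R replicate 1 the lowest, so the R/R lungs enclosed the WT lungs. The log2 fold change was -0.14, with an interval from -0.39 to 0.11 (adjusted p = 0.658). Its exons share 1269 bases with Gm45193, a non-coding transcript on the same strand, which the counting leaves out of both genes.

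Arih1 (ENSMUSG00000025234.11, chromosome 9 from 59388258 to 59486618, minus strand) and Trim25 (ENSMUSG00000000275.16, chromosome 11 from 88999376 to 89020293, plus strand) encode RING-type ligases that mainly transfer ubiquitin. Arih1 was at 123, 133 and 120 CPM in R/R lungs and at 138, 124 and 127 CPM in WT lungs. Its groups overlapped, the log2 fold change was -0.05, and the interval from -0.19 to 0.09 was the narrowest of the members beside that of Trim25. Trim25 was at 158, 148 and 161 CPM in R/R lungs and at 174, 170 and 158 CPM in WT lungs, which gave -0.10 on the log2 scale, with an interval from -0.24 to 0.03. WT replicates 1 and 2 lay above all R/R lungs for Trim25, and WT replicate 3 lay among them. Neither was called with edgeR (adjusted p = 0.794 for Arih1 and 0.497 for Trim25).

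Usp18 (ENSMUSG00000030107.10, chromosome 6 from 121245906 to 121270917, plus strand) encodes the protease that takes ISG15 off its targets. It was at 18.0, 20.9 and 20.4 CPM in R/R lungs and at 20.9, 22.0 and 18.1 CPM in WT lungs. The groups overlapped over nearly their whole range. Its R/R minus WT value on the log2 scale was -0.04, with an interval from -0.27 to 0.18 (adjusted p = 0.906, edgeR). It was 0.02 without WT replicate 2 and 0.02 without R/R replicate 1. The interval leaves out R/R levels below 0.832 times and above 1.13 times the WT level. Usp18 shares 124 exon bases with the antisense Gm44148, which cannot be told apart because the counting did not use strand.

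**Figure D3:**
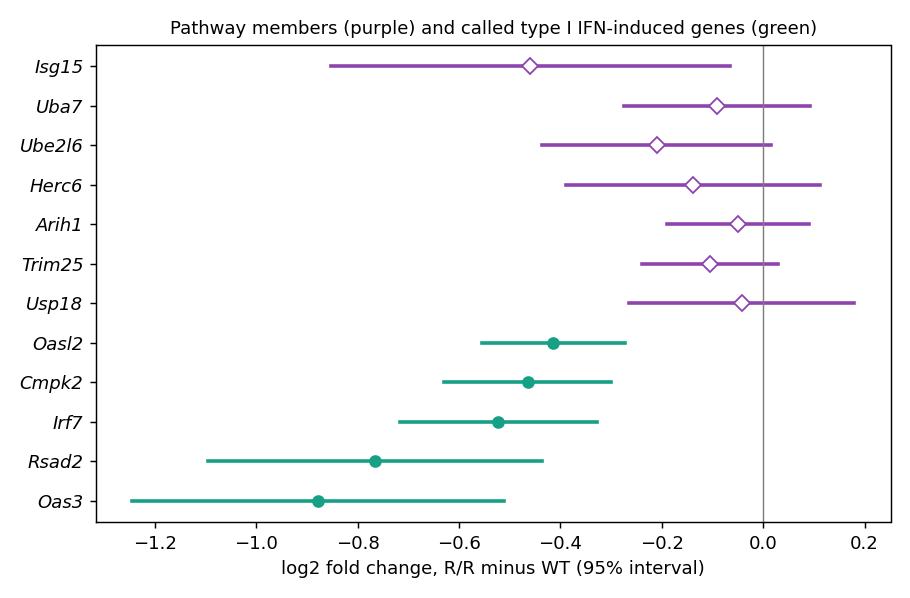
Log2 fold change of R/R minus WT with its unadjusted 95% interval for the 7 members (purple) and for the type I IFN-induced genes outside the pathway that were called (green). Filled circles passed an adjusted p of 0.05. The interval of Isg15 ends at -0.07, those of the other 6 members include 0, and those of the 5 called genes lie between -1.24 and -0.27.

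Single lungs differed in the same order in several members. R/R replicate 1 was the lowest lung for 4 members, Isg15, Ube2l6, Herc6 and Usp18, and WT replicate 2 was the highest for 3, Isg15, Ube2l6 and Usp18. Measured as the deviation of log2 CPM from the mean over the 6 lungs, R/R replicate 1 was at -0.51 for Isg15, -0.35 for Ube2l6, -0.29 for Herc6 and -0.15 for Usp18. It was at -0.05 for Arih1, -0.03 for Trim25 and -0.03 for Uba7. WT replicate 2 was at 0.61 for Isg15 and between -0.04 and 0.19 for the others.

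Levels can be compared between members only per exon length, and the order below uses CPM per kb of exon, as means over 6 lungs. Trim25 was highest at 28.0 (25.6 to 30.3), followed by Ube2l6 at 19.4 (15.1 to 21.9), Isg15 at 16.6 (11.4 to 24.7) and Arih1 at 16.5 (15.5 to 17.9). Below them came Uba7 at 11.2 (9.50 to 12.1), Usp18 at 7.19 (6.44 to 7.89) and Herc6 at 2.11 (1.71 to 2.33). The ranges of Ube2l6, Isg15 and Arih1 overlapped, and Isg15 was above Arih1 in 1 of 6 lungs, so these 3 neighbours did not differ beyond their spread. Every other neighbour in the order was separated in 6 of 6 lungs. The ligase most specific for ISG15, Herc6, thus had the lowest level per kb of the 7 transcripts, and Isg15 had the widest range. The exon length is that of all annotated exons of a gene together, and for Herc6 it includes the 1269 bases shared with Gm45193.

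**Figure D4:**
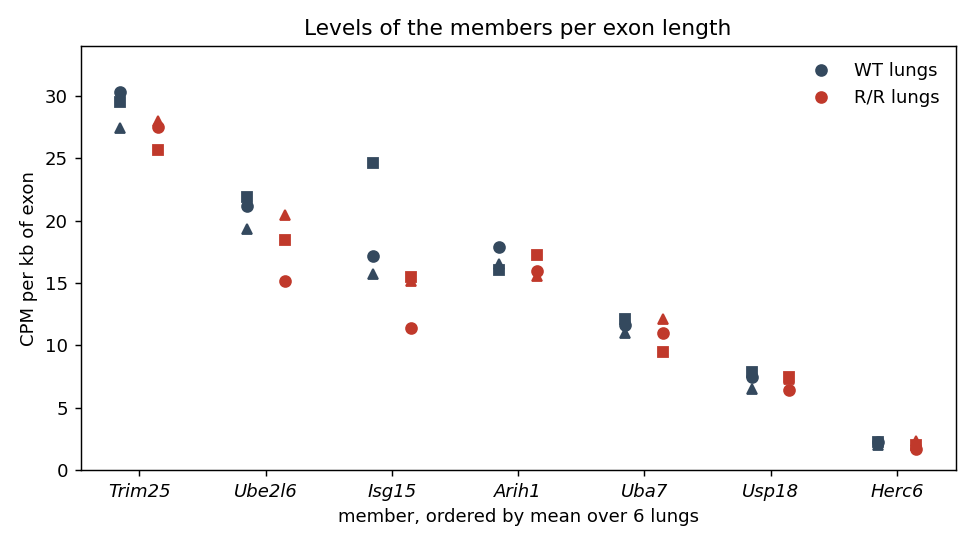
CPM per kb of exon of each member in the 3 WT (blue) and 3 R/R (red) lungs, with circles, squares and triangles for replicates 1, 2 and 3 and the members ordered by their mean. Trim25 lies highest at a mean of 28.0 and Herc6 lowest at 2.11, and Ube2l6, Isg15 and Arih1 overlap.

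The genes whose log2 CPM followed Isg15 most closely over the 6 lungs were not IFN-induced genes of the list. Among 14199 tested genes that averaged a log2 CPM of 1 or more, Chd4, a chromatin remodeler, and Rpe, an enzyme of the pentose phosphate pathway, had a Pearson r of 0.990 each (Spearman rho of 0.943 each). Pdgfd, a growth factor of the PDGF family, had an r of 0.978, Sdccag8, a centrosomal protein, 0.977, and Ccna2, a cyclin of S phase, 0.977, each with a rho of 1. These values describe 6 libraries and 14199 candidates, and without the 2 lungs farthest from the median of Isg15, WT replicate 2 and R/R replicate 1, r was 0.723 for Chd4, 0.735 for Rpe and 0.780 for Sdccag8. It was 0.979 for Pdgfd and 0.926 for Ccna2 over the 4 remaining lungs.

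Among the members, r with Isg15 was 0.856 for Ube2l6, 0.771 for Usp18, 0.744 for Herc6, 0.510 for Trim25, 0.379 for Uba7 and 0.0959 for Arih1. After the mean of each genotype was taken out, it was 0.757, 0.889, 0.657, 0.112, 0.161 and -0.212 in the same order. Without WT replicate 2 and R/R replicate 1 it was lower for Ube2l6 (0.578), Usp18 (0.193), Herc6 (0.288) and Uba7 (0.212) and higher for Trim25 (0.767) and Arih1 (0.814), over the 4 remaining lungs. Of 51 type I IFN-induced genes outside the pathway that were compared, 42 had a positive r with Isg15, with a median of 0.582 against a median of -0.03 over all compared genes, and the highest was Phf11d at 0.950. After the mean of each genotype was taken out, 32 of the 51 were positive, with a median of 0.296 against 0.00, and the called genes Cmpk2 and Oas3 were at -0.05 and -0.56. Without WT replicate 2 and R/R replicate 1, 47 of the 51 were positive, with a median of 0.685 against -0.05, and Phf11d was at 0.596. The values over 4 lungs, here and for the genes most like Isg15, keep the genotype means. Isg15 was higher in both remaining WT lungs than in both remaining R/R lungs, so the genotype difference is part of these values.

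Type I IFN-induced genes outside the pathway give the setting in which the members stand. Of 53 listed genes, 52 were tested and 5 were called, all lower in R/R lungs, beside 1.1% of all tested genes. Of the 52, 47 had a negative log2 fold change, beside 48.8% of all tested genes. An unadjusted p below 0.05 was found for 24, all of them lower, beside 7.68% of all tested genes. There were also 24 that lay below WT without overlap, where the share of all tested genes is 9.5%. The median of the list was -0.16, against -0.10 for the 7 members. Isg15, at -0.46, lay among the 5 called genes in size, but its SE of 0.18 was larger than the 0.06 of Oasl2 and the 0.08 of Cmpk2.

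Irf7, the transcription factor that amplifies IFN production, was at 23.1, 27.4 and 28.3 CPM in R/R lungs and at 35.8, 39.4 and 37.9 CPM in WT lungs (log2 fold change -0.52, adjusted p = 0.0172). Oasl2, an OAS-like protein with ubiquitin-like domains, was at 67.7, 64.5 and 72.0 CPM in R/R lungs and at 92.3, 93.8 and 85.8 CPM in WT lungs (log2 fold change -0.41, adjusted p = 0.0115). Cmpk2, a mitochondrial nucleotide kinase, was at 35.0, 31.8 and 32.2 CPM against 47.6, 46.7 and 42.4 CPM (log2 fold change -0.46, adjusted p = 0.015). For these 3 genes every WT lung lay well above every R/R lung. Oas3, a sensor of double-stranded RNA, averaged 5.24 ± 0.79 CPM in R/R lungs against 9.64 ± 1.37 CPM in the WT group (log2 fold change -0.88, adjusted p = 0.0308), and Rsad2, the antiviral enzyme viperin, had 6.80 ± 1.06 and 11.6 ± 1.29 CPM (log2 fold change -0.77, adjusted p = 0.0321). The 2 genes of the list with the highest mean level, the ligase Rnf213 and the membrane protein Ifitm3, had log2 fold changes of -0.29 (adjusted p = 0.166) and -0.06 (adjusted p = 0.744). The count of 5 fell to 0 without R/R replicate 2, to 1 without WT replicate 1, to 2 without WT replicate 2 and to 3 without R/R replicate 1, and it rose to 12 without WT replicate 3.

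**Figure D5:**
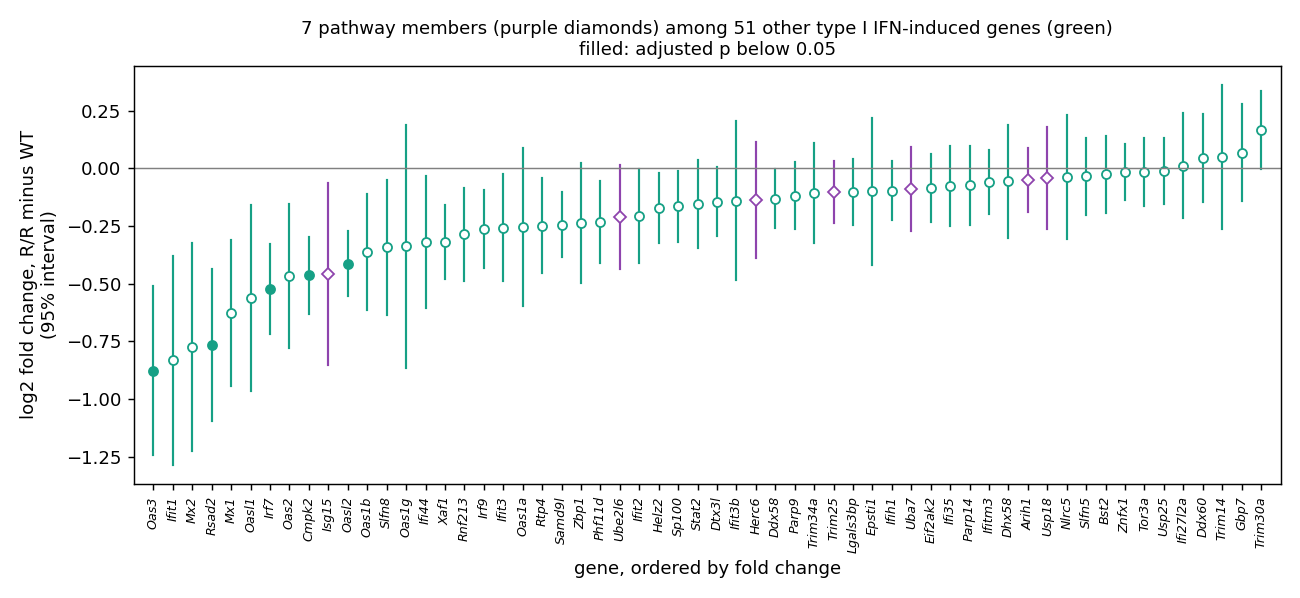
Log2 fold change of R/R minus WT with unadjusted 95% intervals for the 7 members (purple diamonds) and 51 of the other type I IFN-induced genes (green circles), ordered by fold change, with filled symbols for an adjusted p below 0.05. Isg15 stands at -0.46 near the called genes, Ube2l6 at -0.21 in the left part, and the other 5 members between -0.14 and -0.04.

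Upstream of the members, the list of the type I IFN receptor, JAK-STAT proteins and IRF factors had 13 tested genes. Only Irf7 of this list was called, beside 1.75% of all tested genes. Its median log2 fold change was -0.06. The receptor chain Ifnar1 had a value of 0.03 (adjusted p = 0.882), and the kinase Jak1 had -0.03 (adjusted p = 0.907). Most IFN transcripts were not detectable at this depth: of 12 IFN genes listed, 10, including Ifnb1 and all 6 IFN-α genes of the list, had 0 counts in every lung, which allows up to 0.182 CPM in the smallest library by a limit of 3 counts. The other 2 were detected at a few counts. For Ifng, R/R lungs had 3, 0 and 3 counts and WT lungs 5, 6 and 2, and Ifnk had 11 counts in all. Multi-mapping read pairs were left out of the table, so the near-identical IFN-α genes could lose counts.

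The list of proteins known to accept ISG15, which includes Rbm47, had 18 tested genes and none called with edgeR, 4 with an unadjusted p below 0.05, and a median log2 fold change of -0.04. The shares of all tested genes were 1.75% called and 14.2% with an unadjusted p below 0.05. In 10 of the 18 the genotypes did not overlap, 8 of them lower in R/R lungs, beside 18.7% of all tested genes. Eif2ak2, Mx1 and Ddx58 among them are also on the list of type I IFN-induced genes. The kinases Mapk3 and Jak1, the most abundant, had log2 fold changes of 0.05 (adjusted p = 0.739) and -0.03 (adjusted p = 0.907), and Rbm47 had 0.10 (adjusted p = 0.66).

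Enzymes that handle ISG15 beside their work on ubiquitin, and the ubiquitin counterparts of the members, gave no called gene. Over all tested genes, 1.75% were called and 14.2% had an unadjusted p below 0.05. With lists this short, 0 called genes cannot be told apart from that share. Of 6 deubiquitinases that also cleave ISG15, 0 were called with edgeR and 1 had an unadjusted p below 0.05, and the most abundant, Usp5 and Usp16, had log2 fold changes of -0.03 and 0.03. Of 14 ubiquitin genes and close relatives of the members, 0 were called and 0 had an unadjusted p below 0.05. Their median was 0.01, and the ubiquitin gene Ubb and the ubiquitin E1 gene Uba1 had 0.10 (adjusted p = 0.732) and 0.05 (adjusted p = 0.763). Among 5 genes for the receptor of secreted ISG15 and the partners of USP18, 0 were called and 1 had an unadjusted p below 0.05. The integrin chain Itgal, part of the receptor LFA-1, was at 91.8, 74.8 and 86.5 CPM in R/R lungs and at 119, 95.3 and 111 CPM in WT lungs, without overlap (log2 fold change -0.36, adjusted p = 0.0786), and its partner Itgb2 had -0.03 (adjusted p = 0.935).

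Whole lung holds many cell types, and in bulk RNA a smaller number of cells and less RNA per cell cannot be told apart. Of all tested genes, 1.75% were called in either direction and 1.1% were called lower in R/R lungs. B cell markers were lower in R/R lungs, with 5 of 8 called (Ms4a1, Cd79a, Fcer2a and Pax5 among them). Their summed level was 95.6 to 127 CPM against 170 to 214 CPM in WT lungs, and no marker was at 0. Of 9 monocyte markers, Chil3 and Nr4a1 were called higher and 7 had negative values, 4 of them with an unadjusted p below 0.05. The sum was 2221 to 2355 CPM against 2174 to 2212 CPM. Most of that sum came from Ace (mean 1466 CPM in R/R and 1613 CPM in WT lungs) and Chil3 (mean 625 and 390 CPM), so it says little about monocytes. Of 10 alveolar macrophage markers, Mrc1 was called higher, 8 had positive values and 2 negative. An unadjusted p below 0.05 was found for 6, all of them higher in R/R lungs, beside 14.2% of all tested genes. The sum was 397 to 465 CPM against 319 to 408 CPM. No marker of neutrophils (6 tested, all negative, sum 76.4 to 109 CPM against 78.7 to 219 CPM), plasmacytoid dendritic cells (7 tested), T and NK cells (10 tested, sum 53.3 to 62.5 CPM against 60.2 to 79.7 CPM), endothelium (8 tested, sum 4990 to 5156 CPM against 4956 to 5640 CPM), epithelium (11 tested, sum 32657 to 36144 CPM against 26385 to 33388 CPM) or fibroblasts and smooth muscle (8 tested, sum 3046 to 3401 CPM against 3488 to 4106 CPM) was called. Their unadjusted p was below 0.05 in 6, 3, 3, 1, 5 and 2 genes in this order, beside 14.2% of all tested genes. Most of the epithelial sum came from Sftpc (mean 13238 CPM in R/R and 11115 CPM in WT lungs) and Scgb1a1 (mean 13163 and 10622 CPM). Most of the fibroblast and smooth muscle sum came from the collagen genes Col3a1, Col1a2 and Col1a1. These sums therefore mainly give the levels of those genes. The plasmacytoid dendritic cell markers gave a sum of 361 to 386 CPM against 347 to 385 CPM, but most of it came from Tcf4 (mean 260 and 253 CPM) and the IFN-induced Bst2 (mean 90.7 and 92.4 CPM), which other lung cells also express, while Siglech was at a mean of 4.15 and 3.43 CPM, so the sum says little about these cells. WT replicate 2, the lung highest in Isg15, had a neutrophil sum of 78.7 CPM, within the range of the R/R lungs. The part of these differences in the values of the members was not tested.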

How the data were processed

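RNA-seq of lung from 3 R/R and 3 WT mice was compared, with groups and replicate numbers from the sample labels. Per the submitters' notes the authors used HISAT2 2.1.0 and the mm10 (GRCm38) genome, and per the file header they deposited counts per gene, not normalized, of read pairs assigned by featureCounts 2.0.1 with GENCODE M25, without strand or multi-mapping pairs. Of the other deposited values, the exon length per gene was used. Symbols were matched for 55141 of 56262 identifiers.

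In R 4.3.3 with edgeR 4.0.16, filterByExpr (at least 10 counts, 15 in total) selected the genes, which were scaled by TMM and tested with glmQLFit and glmQLFTest. SEs are the log2 fold change over the square root of F. Log2 CPM used a prior count of 0.5. The fit was tested on simulated data. As alternatives, limma-voom (limma 3.58.1), the exact test of edgeR and DESeq2 1.42.0 were run, as were other scalings and filters, a replicate block, a threshold of 0.1 and fits with each library left out. No 2 libraries of a genotype agreed within sampling noise (chi-square per degree of freedom 5.22 to 8.31).

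Named were the members, Rbm47, called genes of each list and its 2 most abundant genes (given as sums for cell type markers), and the 5 genes most like Isg15. Single values of some listed genes are not reported here. Members and lists were chosen with earlier results of these data known. Overlapping genes came from GENCODE M21, and promoter sequences and starts from RefSeq (GRCm38.p6).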

Additional observations from a re-analysis of the deposited data

How the results depend on the processing

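The direction of the members was the same under every change of tool, scaling, filter or block, with log2 fold changes of Isg15 between -0.46 and -0.44. The number of members called was 0 except without a filter on low counts, where it was 1 (Isg15). Leaving out 1 library gave log2 fold changes of -0.59 to -0.24 for Isg15 and -0.121 to 0.0209 for Usp18, the only member whose sign changed (0.0209 without R/R replicate 1 and 0.0173 without WT replicate 2), and 0 members were called each time. The count of all tested genes called, 300, was 529 with DESeq2, 630 with edgeR's exact test, 1109 without a filter, 548 at an adjusted p below 0.1 and 65 to 621 with 1 library left out (65 without WT replicate 1, 76 without R/R replicate 2 and 621 without WT replicate 3). The count of type I IFN-induced genes called, 5, was 8, 10, 14 and 10 under the first 4 of these and 0 to 12 with 1 library left out. The cause of these shifts was not tested.

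With the replicate number as a replicate block, 0 members, 446 genes in all and 6 type I IFN-induced genes were called. Same-numbered lungs correlated at 0.0115 to 0.0218 in their deviations from the genotype means. Every lung correlated best with its own number. With correlations this low and so few lungs, that match cannot decide whether the numbers pair the animals. The labels do not say that they do. Of the members, Isg15 had the fewest counts, with as few as 144 in a lung. How far depth limited its estimate was not tested.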

Other observations

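Among 32 genes of other ubiquitin-like systems (NEDD8, SUMO, UFM1, URM1, ATG12, FAU and UBL5 with their enzymes), 0 were called with edgeR and 2 had an unadjusted p below 0.05, Sumo2 and Fau. The shares of all tested genes were 1.75% called and 14.2% with an unadjusted p below 0.05. The median log2 fold change of the list was 0.06, and 23 of the 32 had a positive value. The most abundant, the ribosomal fusion gene Fau, had a log2 fold change of 0.14 (adjusted p = 0.349).

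Sumo2, chosen after its values were seen, was at 7.66, 9.68 and 8.60 CPM in R/R lungs and at 7.83, 25.5 and 38.0 CPM in WT lungs (log2 fold change -1.46, adjusted p = 0.104 with edgeR). WT replicate 1 lay within the R/R lungs. Its relative Sumo3 had a log2 fold change of 0.07. The ubiquitin fusion gene Rps27a, also chosen afterwards, was at 73.5, 174 and 91.0 CPM in R/R lungs and at 59.2, 131 and 74.5 CPM in WT lungs, highest in replicate 2 of both genotypes.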
